A study of Homo sapiens with 3 samples.

Results

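Transcription factors that set the identity of mammary epithelial cells were followed in 3 human cell lines, as intensities on exon arrays with 1 array per line. The set was 10 symbols chosen by name: GATA3, FOXA1, TP63, ELF5, TFAP2A, TFAP2C, EHF, SOX9, SOX10 and FOXC1. These symbols and the gene lists below were chosen with earlier results of these data known. A transcript cluster, the set of probes that an exon array assigns to 1 gene, carried the symbol for 8 of the 10, out of 14410 genes with a cluster of their own. TP63 and FOXC1 were not analysed here. Each of the 8 had 1 cluster, and in each the member was the only symbol listed.

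The lines were MCF10A, MDA-MB-436 and HT-29, in 3 groups of 1 array. MCF10A is a non-tumorigenic mammary epithelial line and was kept in DMEM/F12 with 5% horse serum, EGF at 20 ng/ml, hydrocortisone at 500 ng/ml, cholera toxin at 100 ng/ml and insulin at 10 µg/ml. MDA-MB-436, a breast adenocarcinoma line, grew in L-15 with 10% FBS and without CO2. HT-29, a colon adenocarcinoma line in McCoy's 5A with 10% FBS, received interferon gamma (IFN-γ) at 200 U/ml for 24 h; no HT-29 array without IFN-γ was analysed here, so line, medium and cytokine cannot be told apart in any difference that involves it. MCF10A and MDA-MB-436 also differed in medium, serum and supplements, so line and medium cannot be told apart between them either. Each group was 1 array of a single line with no replicate, so neither tests nor errors are given.

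In the mammary gland an inner luminal layer, with hormone-sensing and milk-producing cells, is surrounded by a basal layer of contractile cells. GATA3 and FOXA1 act with the estrogen receptor in hormone-sensing luminal cells. ELF5 directs the alveolar, milk-producing lineage, and EHF is a related ETS-domain factor of many epithelia. TFAP2A and TFAP2C encode AP-2 factors with overlapping target sequences. SOX9 marks luminal progenitors and intestinal crypt cells, SOX10 is a factor of neural crest derivatives and of some basal-like mammary cells, and TP63 and FOXC1 are factors of basal and basal-like cells.

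Values are the deposited linear intensities. Background was 29.9, the 95th percentile of 228 olfactory receptor genes, which are little expressed outside olfactory tissue; their highest value was 101. The median intensity over all clusters lay between 75.1 and 81 in the 3 arrays. A gene was counted as different when the intensities differed at least 4-fold (2 on the log2 scale) and the brighter array was above background. If the dimmer value lay under background, the fold was taken against background and is written as "at least"; such a bound can be under 4 for a gene past 4-fold by measured intensity. Values given without a line are in the order MCF10A, MDA-MB-436, HT-29. Of 8 epithelial markers, all 8 exceeded background in HT-29 and in MCF10A but only 4 did so in MDA-MB-436, where KRT8 and KRT18, keratins of simple epithelia, were at 403 and 1227.9 but the E-cadherin gene CDH1 was at 10.3. Of 7 intestinal markers 6 exceeded background in HT-29, 2 in MDA-MB-436 and 1 in MCF10A. In MDA-MB-436 those were CDX1 at 33.3 and CDX2 at 51.9, beside 22 and 53.2 in MCF10A. Of 6 leukocyte markers, CD68 exceeded background, in all 3 arrays (294, 1203.2 and 314), and the leukocyte gene PTPRC did not. Of 8 endothelial markers, CLDN5 exceeded it in all 3 arrays (49.9, 61.3 and 65.8) and ESAM in HT-29 (206), while PECAM1 and CDH5 did not.

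The promoters of FOXA1, TFAP2A and EHF are shown because these genes differed at least 4-fold between lines, and that of ELF5 because it lies next to EHF on chromosome 11 but stayed under background. Each line gives the 250 bases before the first start listed for the gene in a separate promoter set (build GRCh38.p14). Bases run 5′ to 3′ on the gene's strand, and capitals mark motif matches.
FOXA1, chr14:37595250-37595499, - strand: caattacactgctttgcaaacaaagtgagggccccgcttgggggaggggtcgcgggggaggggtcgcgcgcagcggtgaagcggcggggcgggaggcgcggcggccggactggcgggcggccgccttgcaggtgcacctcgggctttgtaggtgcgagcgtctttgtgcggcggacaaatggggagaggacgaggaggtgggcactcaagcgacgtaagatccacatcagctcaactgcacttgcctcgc
TFAP2A, chr6:10419660-10419909, - strand: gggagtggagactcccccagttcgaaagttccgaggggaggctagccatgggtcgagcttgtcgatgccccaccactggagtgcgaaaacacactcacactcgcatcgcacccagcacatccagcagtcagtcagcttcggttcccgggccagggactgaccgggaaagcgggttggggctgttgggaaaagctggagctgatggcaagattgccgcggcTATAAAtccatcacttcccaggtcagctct
EHF, chr11:34624007-34624256, + strand: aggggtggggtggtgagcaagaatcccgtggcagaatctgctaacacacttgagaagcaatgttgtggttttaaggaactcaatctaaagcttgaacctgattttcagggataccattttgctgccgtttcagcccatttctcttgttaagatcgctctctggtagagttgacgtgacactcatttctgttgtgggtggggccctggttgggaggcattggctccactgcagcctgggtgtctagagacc
ELF5, chr11:34511725-34511974, - strand: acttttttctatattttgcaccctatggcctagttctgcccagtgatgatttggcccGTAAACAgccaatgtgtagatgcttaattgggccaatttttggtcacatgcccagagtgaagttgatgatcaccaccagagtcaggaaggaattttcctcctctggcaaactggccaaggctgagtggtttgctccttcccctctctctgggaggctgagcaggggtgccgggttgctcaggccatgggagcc

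Of the 8 measured members, GATA3, FOXA1, ELF5, TFAP2A and EHF had an entry in this promoter set, and TFAP2C, SOX9 and SOX10 had none. The windows shown differed in base composition. FOXA1 held 26 CpG dinucleotides and a GC content of 67.2%, and 19.6% of the 35116 windows in the set held as many. TFAP2A held 13, ELF5 held 2 and EHF held 4, beside a median of 11 over all windows. The ELF5 and EHF windows lie inside the RefSeq span of their own genes, so they describe a start within the gene and not its first annotated base.

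Both strands were searched for the AP-2 motif GCCNNNGGC, the ETS motif CCGGAAGT, the GATA motif AGATAA, the forkhead motif TGTTTAC, the SOX motif AACAAT, the interferon-gamma activated site TTCNNNGAA and the TATA box TATAAA. In the windows shown there were 2 matches. TFAP2A had a TATA box that began 30 bases before the start; 10.7% of all windows held one. ELF5 had a forkhead match in its reverse-strand form, which began 193 bases before the start; 2.98% of all windows held one. The windows of FOXA1 and EHF held none of these letters.

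The members did not share 1 order across the lines. FOXA1 and EHF were brightest in HT-29, TFAP2A and GATA3 in MCF10A, and TFAP2C in MDA-MB-436. SOX9 was lowest in MCF10A, and ELF5 and SOX10 were at or near background throughout. The plot of the 8 members by line shows these orders.

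**Figure D1:**
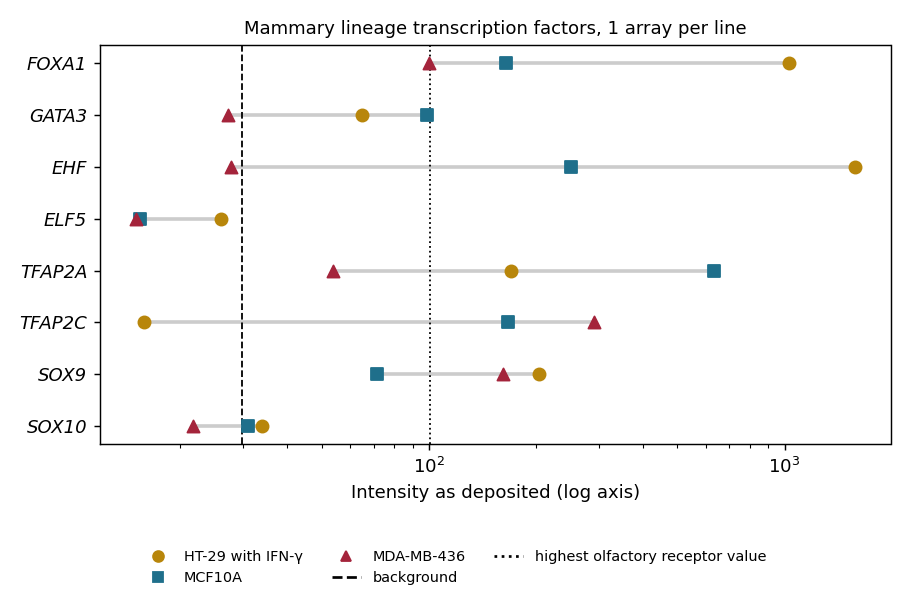
Intensity as deposited (log axis) of the 8 measured members in HT-29 with IFN-γ (circles), MCF10A (squares) and MDA-MB-436 (triangles), 1 array each, with the background at 29.9 (dashed) and the highest olfactory receptor value at 101 (dotted). TFAP2A and TFAP2C have different orders of the lines, and ELF5 lies left of the dashed line in all 3 arrays.

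Set side by side, the comparisons differed in how many members they separated. In MDA-MB-436 against MCF10A, 2 of 8 members were at least 4-fold lower, TFAP2A and EHF, and 0 higher; over all 14410 genes 2.01% were lower and 3.65% higher. In HT-29 with IFN-γ against MCF10A, FOXA1 and EHF were higher and TFAP2C lower, beside 4.34% and 3.5% of all genes. In HT-29 with IFN-γ against MDA-MB-436 the same 3 members passed in the same directions, beside 4.21% higher and 4.68% lower. These comparisons share arrays, so their counts are not separate observations, and with 8 members a single gene moves each share strongly.

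**Figure D2:**
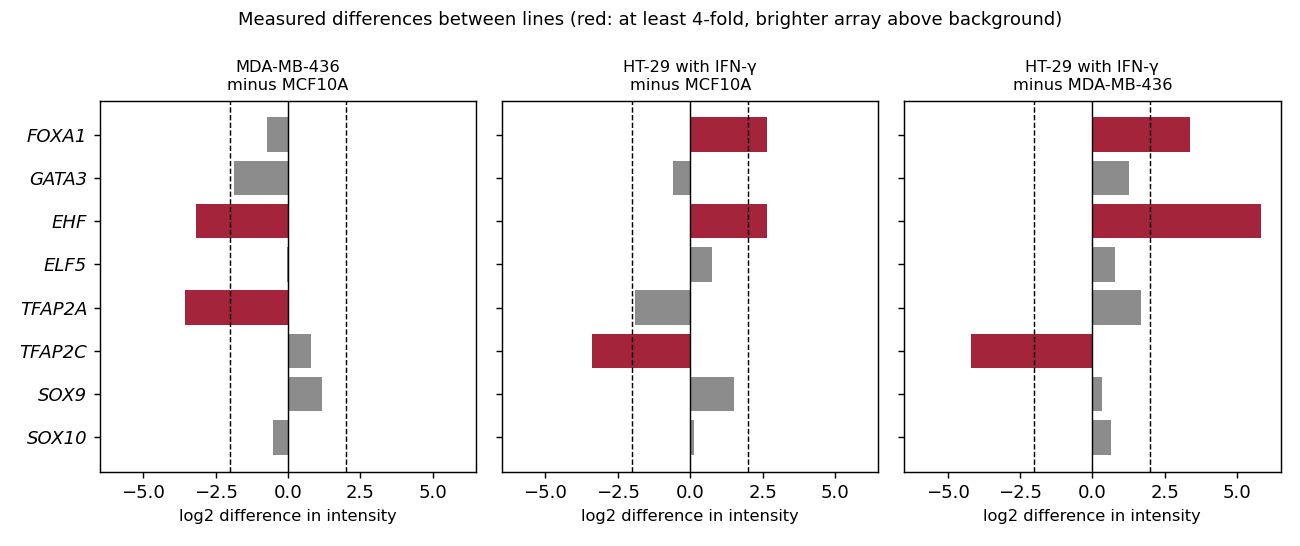
Log2 difference in intensity of each member in the 3 comparisons of single arrays; red bars passed 4-fold (dashed lines at 2 and -2) with the brighter array above background. FOXA1 and EHF extend to the right in both HT-29 panels and TFAP2C to the left, while TFAP2A and EHF extend to the left in MDA-MB-436 minus MCF10A.

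The median log2 difference of the 8 members was -0.62 in MDA-MB-436 minus MCF10A, 0.45 in HT-29 minus MCF10A and 1.03 in HT-29 minus MDA-MB-436. Over all genes it was 0.02, 0.11 and 0.08. With values under background set to it, the member medians were -0.39, 0.06 and 0.72. In the first comparison 6 members were on the lower side by measured intensity and in the last 7 were on the higher side, but ELF5 was under background in both arrays of each.

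FOXA1 encodes a forkhead factor that opens closed chromatin for nuclear receptors. Its intensity was 165 in MCF10A, 100 in MDA-MB-436 and 1031.4 in HT-29 with IFN-γ. HT-29 stood apart, 6.24-fold above MCF10A and 10.3-fold above MDA-MB-436, whereas the mammary lines differed by 1.65-fold. The MDA-MB-436 value lay just inside the range of the olfactory receptor genes. Of the genes above background in the brighter array, 4.11% were as far above MCF10A in HT-29 and 2.12% as far above MDA-MB-436.

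The other FOXA genes, which act in endoderm-derived organs, were also brightest in HT-29. FOXA2 was at 24.1 in MCF10A, 31.8 in MDA-MB-436 and 94 in HT-29. FOXA3 was at 7.31, 6.67 and 41.4, at least 1.38-fold higher in HT-29. FOXA3 was past 4-fold by measured intensity against both lines. All FOXA2 and FOXA3 values lay within the olfactory receptor range. Intestinal markers were also brightest in HT-29, with a summed intensity of 4182.1 against 131 (MCF10A) and 156 (MDA-MB-436). In HT-29 the sum was mostly LGALS4 (2372.4) and KRT20 (1347.9), with CDX1 at 34.8 and CDX2 at 74.8. The part of intestinal markers in the FOXA1 values was not tested. The 3 genes with the pattern most like that of FOXA1, by distance between centred log2 intensities over the 3 arrays, were HLA-E (0.112), FOXQ1 (0.134) and MYEOV (0.233). HLA-E, an MHC class I gene inducible by interferon, was at 409 in MCF10A, 276 in MDA-MB-436 and 2632.1 in HT-29. Of 10708 genes above background in at least 1 array, 32 lay within a distance of 0.5.

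GATA3 encodes a zinc finger factor needed to maintain luminal cells. Its intensity was 99.1 in MCF10A, 27.2 in MDA-MB-436 and 64.9 in HT-29 with IFN-γ. All 3 values lay within the olfactory receptor range, and the MDA-MB-436 value was under background. MCF10A was at least 3.31-fold above MDA-MB-436. The log2 difference between MDA-MB-436 and MCF10A was -1.86, just short of the 4-fold limit, and -2.01 after quantile normalization, just past it. GATA3-AS1, an antisense RNA gene that overlaps GATA3, was under background in all 3 arrays, at 18.5, 19.2 and 20.

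Among the other GATA genes, GATA6, a factor of endoderm and heart, was at 181 in MCF10A, 362 in MDA-MB-436 and 510 in HT-29. GATA4, another factor of heart and endoderm, was at 68.8 in MDA-MB-436 and under background in the other lines, at least 2.3-fold higher. GATA1, GATA2 and GATA5 lay between 31.2 and 63.4 in every array. No GATA gene differed 4-fold in any comparison of the deposited values, a count near the shares over all genes (2.01% to 4.68% in a direction).

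ESR1 and PGR, the estrogen and progesterone receptor genes with which GATA3 and FOXA1 act, were under background in all 3 lines. ESR1 was at 26.2 in MCF10A, 20 in MDA-MB-436 and 24.8 in HT-29, and PGR at 3.51, 4.36 and 4.71. On a list of 22 measured hormone-sensing luminal genes, 0 were at least 4-fold higher and 2 lower in MDA-MB-436 than in MCF10A, beside 3.65% and 2.01% of all genes. The median log2 difference was -0.35, beside 0.02 over all genes, and 0.00 with values under background set to it. The lower ones were the keratin gene KRT7, 38.2-fold, and the mucin gene MUC1, 8-fold. In HT-29 the same list had 6 higher and 1 lower against MCF10A (median 1.27, beside 0.11 over all genes) and 10 higher and 0 lower against MDA-MB-436 (median 1.76, beside 0.08). With values under background set to it these medians were 0.74 and 0.89. Over all genes 4.34% were higher and 3.5% lower in the first of these comparisons, and 4.21% and 4.68% in the second. TFF3 (at least 2.43-fold in both) and TFF1 (at least 1.91-fold against MDA-MB-436) were counted by measured intensity only. KRT8, KRT18 and KRT19 are also among the epithelial markers. AGR2, a disulfide isomerase of mucus-secreting cells, was at least 23.4-fold above each mammary line, and KRT19 was 41-fold above MCF10A and 63.9-fold above MDA-MB-436. Several of these genes are also expressed in intestinal epithelium.

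Of 7 measured genes for co-factors of GATA and FOXA proteins 0 differed 4-fold in any of the 3 comparisons, a count near the shares over all genes (2.01% to 4.68% in a direction), and 4 were above background in each array. KMT2C, a histone methyltransferase gene, was at 306, 196 and 597, and HT-29 was 3.04-fold above MDA-MB-436. TLE3, a corepressor, was at 159 in MCF10A, 129 in MDA-MB-436 and 256 in HT-29. LDB1, an adaptor of LIM-domain proteins, was at 480, 409 and 281.

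EHF had the largest difference of the 8 members. Its intensity was 251 in MCF10A, 27.8 in MDA-MB-436 and 1573.6 in HT-29 with IFN-γ. The MDA-MB-436 value was under background. HT-29 was 6.27-fold above MCF10A and at least 52.6-fold above MDA-MB-436, and MCF10A was at least 8.39-fold above MDA-MB-436. In the comparison of HT-29 with MDA-MB-436, 48 of 10531 genes above background, or 0.456%, were as far apart in the same direction.

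ELF5 lies next to EHF on chromosome 11 among genes with a cluster of their own, and its protein belongs to the same epithelium-specific ETS group. Its intensity was 15.4 in MCF10A, 15 in MDA-MB-436 and 26.1 in HT-29. All 3 values were under background, so no fold is given. The neighbours of EHF did not share its pattern: over ELF5, CAT, NAT10, PDHX, CD44 and SLC1A2, the log2 differences in the 3 comparisons lay between -0.84 and 0.80. CAT, which encodes catalase, was at 503 in MCF10A, 418 in MDA-MB-436 and 389 in HT-29.

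Other genes of the ETS group followed EHF in part. SPDEF, a factor of goblet and luminal secretory cells, was at 32.7 in MCF10A, 32.6 in MDA-MB-436 and 219 in HT-29. ELF3, an epithelium-specific ETS factor, was at 36.7, 41 and 112. ELF1 and ELF4, which are not restricted to epithelia, were also brightest in HT-29. ELF1 was at 850 in MCF10A, 300 in MDA-MB-436 and 1034.3 in HT-29, which was 1.22-fold above MCF10A. ELF4 was at 189, 198 and 500. Against MDA-MB-436, EHF and SPDEF were the only ones of the 6 measured genes of this family past 4-fold in HT-29, beside 4.21% of all genes higher. Against MCF10A the count was also 2, again EHF and SPDEF, beside 4.34%.

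**Figure D3:**
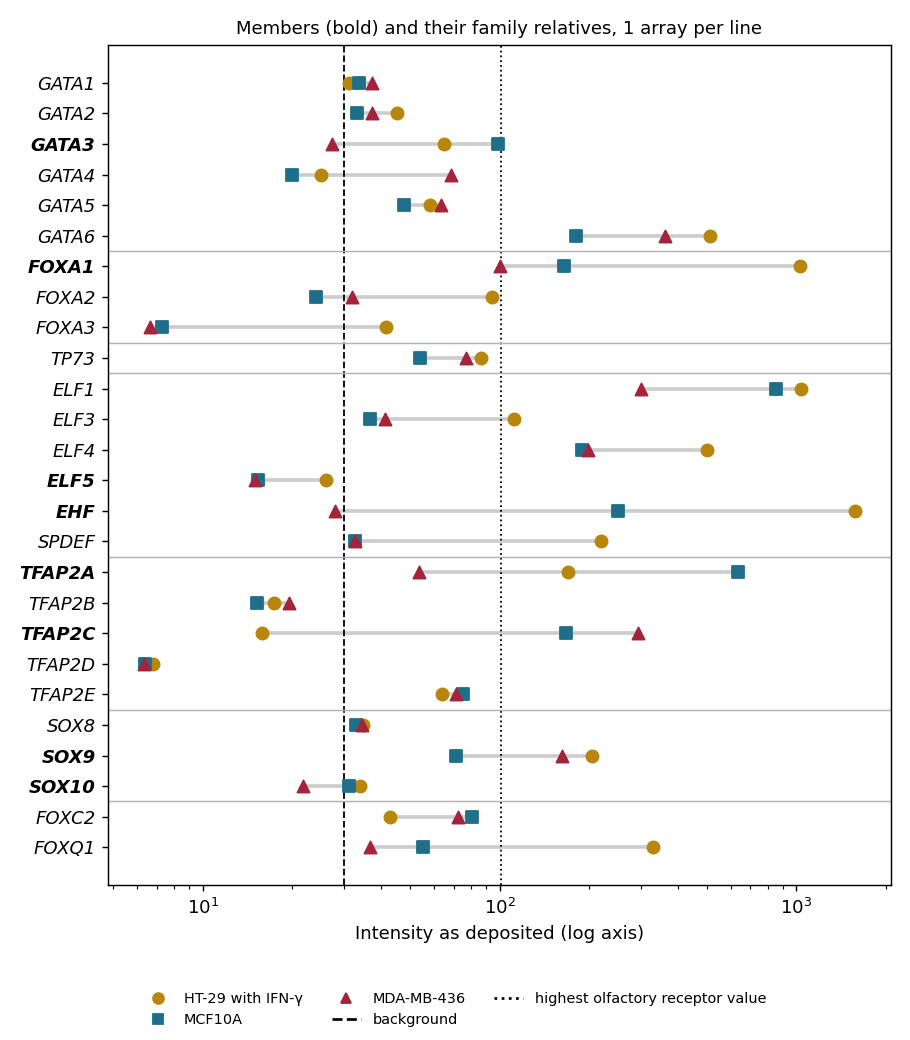
Intensity as deposited (log axis) of the members (bold) and their family relatives in the 3 lines, 1 array each; horizontal lines part the families, and dashed and dotted lines mark the background and the highest olfactory receptor value. EHF spans 27.8 to 1573.6, whereas its relative ELF5 spans 15 to 26.1.

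The gene with the pattern most like EHF was EPCAM, an epithelial cell adhesion molecule, at a distance of 0.215. EPCAM was at 360 in MCF10A, 34.9 in MDA-MB-436 and 2107.1 in HT-29. TRIM22, an interferon-induced antiviral gene, followed at 0.463, with 210, 14.8 and 1002.8, and then PRSS8, a membrane serine protease, at 0.526. Only 2 of 10708 genes lay within 0.5. Of the 8 epithelial markers, 5 were lower by 4-fold or more in MDA-MB-436 relative to MCF10A, beside 2.01% of all genes. KRT8 (1.38-fold), KRT18 (1.71-fold) and KRT19 (1.56-fold) did not pass. In HT-29, 4 of the 8 were higher against MCF10A and 8 against MDA-MB-436, beside 4.34% and 4.21% of all genes. Their summed intensity, 5918.4 in MCF10A, 1762.4 in MDA-MB-436 and 21939.3 in HT-29, was mostly KRT8 and KRT18 in MDA-MB-436. The part of these marker differences in the values of EHF, and of TFAP2A, which was also lowest in MDA-MB-436, was not tested.

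Among genes of the alveolar and luminal progenitor state, with which ELF5 is associated, no common direction appeared. Of 17 measured genes, 2 were at least 4-fold higher and 3 lower in MDA-MB-436 than in MCF10A, beside 3.65% and 2.01% of all genes. The median log2 difference was 0.24, beside 0.02 over all genes, and 0.00 both after quantile normalization and with values under background set to it. PRLR, the prolactin receptor gene, was at 170 in MDA-MB-436 and under background in the other lines, at least 5.68-fold higher. ALDH1A3, an aldehyde dehydrogenase of luminal progenitors, was at 1191.8 in MDA-MB-436, 229 in MCF10A and 96.4 in HT-29. MCF10A exceeded MDA-MB-436 by 11.6-fold for the keratin gene KRT15 and by at least 4.92-fold for XDH, a purine oxidase also found in milk fat globules. HT-29 had 3 of the 17 higher and 3 lower against MCF10A (median 0.10), beside 4.34% and 3.5% of all genes. Against MDA-MB-436 it had 3 higher and 2 lower (median -0.06), beside 4.21% and 4.68%. PROM1, a membrane glycoprotein gene, was at 136 in HT-29, at least 4.55-fold above both mammary lines, and PIGR, the receptor that carries immunoglobulins across epithelia, at 185, at least 6.2-fold above both.

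TFAP2A and TFAP2C, both AP-2 genes, had different orders of the lines. TFAP2A was at 635 in MCF10A, 53.6 in MDA-MB-436 and 170 in HT-29 with IFN-γ. Its MDA-MB-436 value lay within the olfactory receptor range. MCF10A was highest, 11.8-fold above MDA-MB-436 and 3.73-fold above HT-29, the second of which falls just short of 4-fold. Only 94 of 10308 genes above background, or 0.912%, were as far below MCF10A in MDA-MB-436.

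TFAP2C was at 167 in MCF10A, 292 in MDA-MB-436 and 15.8 in HT-29. It was under background in HT-29, at least 5.59-fold below MCF10A and at least 9.75-fold below MDA-MB-436, while the mammary lines differed by 1.74-fold. MDA-MB-436 thus had the lowest TFAP2A and the highest TFAP2C of the 3 arrays.

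The other AP-2 genes showed little. TFAP2B and TFAP2D were under background in every array, and TFAP2E, at 75, 71.2 and 64.1, differed by at most 1.17-fold. Of 12 measured genes for AP-2 partners and targets, 0 were 4-fold apart between the mammary lines, where 3.65% of all genes were higher and 2.01% lower. Their median log2 difference in MDA-MB-436 minus MCF10A was -0.49, beside 0.02 over all genes, and still -0.49 with values under background set to it. ERBB2, an AP-2 target that encodes a growth factor receptor, was at 148 in MCF10A, 98.4 in MDA-MB-436 and 235 in HT-29. CDKN1A, the gene of a cyclin-dependent kinase inhibitor, was at 514, 162 and 372. ERBB3, the partner receptor of ERBB2, was the exception in HT-29, at 918 against 48.5 in MCF10A and 15.5 in MDA-MB-436, 18.9-fold and at least 30.7-fold higher. Over all genes 4.34% and 4.21% were higher in these 2 comparisons.

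The patterns nearest to TFAP2A were those of SYT8 (0.342), PTPN13 (0.372) and LIPG (0.447), and 4 genes lay within 0.5. PTPN13, which encodes a tyrosine phosphatase, was at 646, 59.5 and 133. Those nearest to TFAP2C were ZNF462 (0.0206), GGH (0.0384) and POGLUT2 (0.0559), and 35 genes lay within 0.5. GGH, which encodes a hydrolase of folate polyglutamates, was at 166, 300 and 26.3. Distances were taken with values under background set to it, which brings genes under background in the same line close together.

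In the 8 differences of members past 4-fold, 48 values of the nearest 3 genes on each side included 1 past 4-fold in the same direction and 1 in the opposite direction. These counts are near the shares over all genes, which lie between 2.01% and 4.68% in a direction. The first was BMP7, a growth factor gene next to TFAP2C on chromosome 20, at 138 in MDA-MB-436, 11.9 in MCF10A and 10.9 in HT-29. The second was MIPOL1, next to FOXA1 on chromosome 14, which was at least 2.48-fold lower in HT-29 than in MCF10A, at 17 against 74.3.

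SOX9 was at 71.5 in MCF10A, 162 in MDA-MB-436 and 204 in HT-29 with IFN-γ. Its MCF10A value lay within the olfactory receptor range. HT-29 was 2.85-fold and MDA-MB-436 2.26-fold above MCF10A, and HT-29 and MDA-MB-436 differed by 1.26-fold, so none was 4-fold apart. Of 9 measured genes linked to SOX9 in cartilage and in intestinal crypts, 3 were above background in any array and 0 differed 4-fold. That count of 0 was near the shares over all genes (2.01% to 4.68% in a direction). LGR5, a marker of intestinal stem cells, was under background in all 3, and the ephrin receptor gene EPHB3 was at 127, 31.9 and 107. After quantile normalization or median centring, 1 of the 9 was past 4-fold, lower in MDA-MB-436 relative to MCF10A.

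SOX10 was at 31 in MCF10A, 21.7 in MDA-MB-436 and 33.9 in HT-29. These values lay close to background, under it in MDA-MB-436, and the sign of the difference between HT-29 and MCF10A was lost with quantile normalization (0.13 on the log2 scale as deposited, 0 after it). SOX10 shares its locus with POLR2F, an RNA polymerase subunit gene, which was at 830, 707 and 448 and did not follow it. SOX8, the remaining gene of this SOX group, lay between 32.9 and 34.7. Of 12 measured genes linked to SOX10, 0 differed 4-fold between the mammary lines, where 3.65% of all genes were higher and 2.01% lower. S100B, CDH19 and EDNRB were under background throughout. HT-29 had 2 of the 12 higher and 0 lower against MCF10A, the receptor genes ERBB3 and GABRP, beside 4.34% and 3.5% of all genes. Against MDA-MB-436 it had 2 higher and 1 lower, beside 4.21% and 4.68%. GABRP, at 83.3 in HT-29, was at least 2.79-fold higher, and each count of 2 became 1 with values under background set to it. MITF, a factor of melanocytes, was at 162 in MDA-MB-436, 55.3 in MCF10A and 17.4 in HT-29.

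TP63 was not analysed here, but genes known to depend on p63 or to mark basal cells were. Of 20 measured genes, 11 were lower by 4-fold or more in MDA-MB-436 relative to MCF10A and 0 higher, beside 2.01% and 3.65% of all genes. Their median log2 difference was -3.02, beside 0.02 over all genes. The list was chosen with earlier results of these data known, so the values over all genes are not an independent measure for it. KRT14, a basal keratin, was at 3732 in MCF10A against 17.6 in MDA-MB-436 and 27.1 in HT-29. SERPINB5, a serpin gene, was at 1891.9 in MCF10A, at least 63.2-fold above MDA-MB-436. DSC3, a desmosomal cadherin gene, was at 618 in MCF10A, at least 20.7-fold above each of the other lines. The related gene DSG3 was at least 34.6-fold below MCF10A in MDA-MB-436, and CDH3, which encodes P-cadherin, at least 41.4-fold. TP73, the p63 relative that was measured, was at 53.8, 77 and 86.6. TRIM29, at 1072.8 in MCF10A, 25.1 in MDA-MB-436 and 528 in HT-29, and SFN, which encodes stratifin, at 2632.8, 169 and 944, had the same order of lines as TFAP2A. That order was not particular to them: other genes of the list, such as CDH3, SERPINB5 and EGFR, also had it. Others, such as S100A2, BNC1 and DSC3, did not. HT-29 had 8 of the 20 lower and 0 higher than MCF10A (median -1.24), beside 3.5% and 4.34% of all genes. It had 3 higher and 0 lower than MDA-MB-436 (median 0.63), which were TRIM29, SFN and SERPINB5, the last at 95.9 against 6.31 and so at least 3.21-fold; all genes gave 4.21% higher and 4.68% lower. Without the background filter, or with the median over clusters, 1 of the 20 was lower there. The FOXC1 relative FOXC2 was at 80.9 in MCF10A, 72.4 in MDA-MB-436 and 42.7 in HT-29, and FOXQ1, a forkhead gene on the same chromosome as FOXC1, at 55.2, 36.5 and 329.

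**Figure D4:**
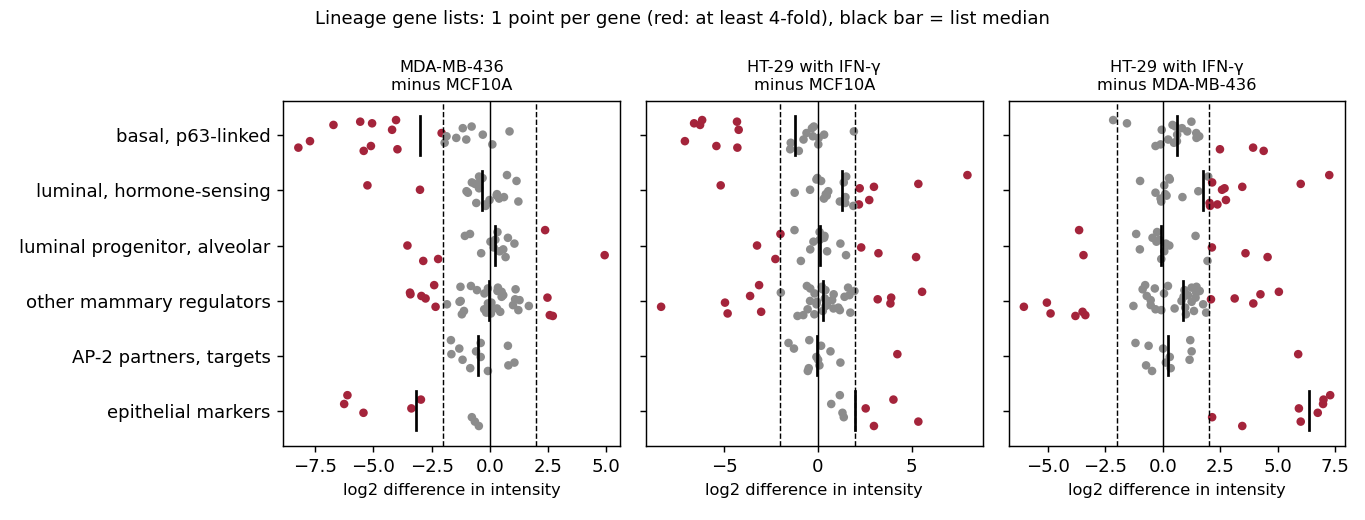
Log2 differences in intensity for the genes of 6 lists in the 3 comparisons, 1 point per gene, with genes past 4-fold and above background in red, the list median as a black bar and 4-fold as dashed lines. Basal genes lie to the left in MDA-MB-436 minus MCF10A (median -3.02), whereas the other mammary regulators spread to both sides (median -0.01).

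A further list of 38 measured regulators of mammary or epithelial state was also split. Between MDA-MB-436 and MCF10A, 6 were at least 4-fold lower and 3 higher, beside 2.01% and 3.65% of all genes. Lower in MDA-MB-436 were GRHL3, a factor of epidermal barrier formation, at least 7.35-fold, the helix-loop-helix inhibitors ID1, 10.6-fold, and ID3, 7.66-fold, and KLF5, a factor of proliferating epithelium, 6.76-fold. The 6 lower genes also included SNAI2, 5.03-fold, and BCL11A, at least 3.37-fold. The 3 higher genes, named after their values were seen, were the epithelial repressors ZEB1 (5.99-fold) and ZEB2 (6.53-fold) and the zinc finger gene KLF4 (5.59-fold). VIM, which encodes the mesenchymal filament protein vimentin, was at 1933 in MCF10A, 2037.5 in MDA-MB-436 and 21 in HT-29. SNAI2, a repressor of E-cadherin that is high in basal cells, was at 4077.7 in MCF10A, 810 in MDA-MB-436 and 12.4 in HT-29. GRHL2, an activator of epithelial genes, had the opposite arrangement, at 489 in HT-29 and under background in both mammary lines. NR3C1, the glucocorticoid receptor gene, was at 15.5 in HT-29, against 481 for MCF10A and 504 for MDA-MB-436. For HT-29 against MCF10A 4 of the 38 were higher and 6 lower, beside 4.34% and 3.5% of all genes, and against MDA-MB-436 5 were higher and 6 lower, beside 4.21% and 4.68%.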

How the data were processed

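Per the labels' protocols, RNA of 3 human cell lines was biotin-labelled for exon arrays. The deposited values are intensities on a linear scale, 1 per transcript cluster and array (18708 clusters). The summary method, background correction and normalization are not given in the sources used here. Per the submitters' processing notes, the build was hg19. The number of arrays, 1 a group, limits the precision and allowed no test.

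Clusters were named from the platform annotation, which can be old, with symbols updated by gene identifier (14705 of 14733 clusters with 1 symbol) through RefSeq of GRCh38.p14, used otherwise for gene order. Promoter sequence came from a separate promoter set of the same build. Clusters with several symbols (2875) or none (1100) were left unnamed. For genes with several clusters the one with the highest mean was used, which left 14410 genes. Differences were taken between log2 intensities. The members and all gene lists were chosen with earlier results of these data known. Named genes were the members, their family relatives above background, the most similar patterns, neighbours past 4-fold where their member was, and per list the 4 (MDA-MB-436 against MCF10A) or 3 (HT-29) largest differences; others were added after their values were seen, where a role or count needed them. Alternatives were 2 scalings, 2 background filters, a background floor, 2 folds and the median over clusters. The counting step was tested on simulated data with 8-fold changes placed in bright genes only. It was not tested for smaller changes or for values near background. All steps ran in Python 3.11.15, with pandas 2.3.3 on numpy 2.4.6 and plots from matplotlib 3.10.9.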

Additional observations from a re-analysis of the deposited data

How the results depend on the processing

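All 8 member differences past 4-fold kept their direction and stayed past it under quantile normalization, median centring, no background filter, a stricter filter at 60.6, the 99th percentile for olfactory receptors, values under background set to it, and the median of each gene's clusters. A limit of 8-fold removed FOXA1 and EHF from HT-29 against MCF10A, leaving 0 members higher there, beside 2.3% of all genes. A limit of 2-fold gave 1 member higher and 3 lower in MDA-MB-436 than in MCF10A, beside 8.76% and 8.74% of all genes. At that limit 2 members were lower in HT-29 than in MCF10A, beside 10.1% of all genes. In HT-29, 4 were higher than in MDA-MB-436, beside 11.5%. Quantile normalization took GATA3 past 4-fold in MDA-MB-436 minus MCF10A (-2.01), which makes 3 members lower there. Setting values under background to it lowered the share of all genes 4-fold higher in the first comparison from 3.65% to 2.13%. The median log2 difference over all genes moved from 0.02 to -0.09 in MDA-MB-436 minus MCF10A with median centring and from 0.11 to -0.01 in HT-29 minus MCF10A with quantile normalization. No paired analysis was possible because each group had 1 array and the labels give no replicate numbers. ELF5 and SOX10, at or near background, and GATA3, inside the olfactory receptor range, are the members whose levels signal over background limits most.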

Other observations

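Contractile and matrix genes of myoepithelial cells, the basal cells that squeeze milk from the gland, were not described above. Of 10 measured genes, MDA-MB-436 had 2 past 4-fold above MCF10A by measured intensity and 0 below it, beside 3.65% and 2.01% of all genes. With values under background set to it, 1 was past 4-fold. The median log2 difference was -0.08, beside 0.02 over all genes, and 0.00 with values under background set to it. OXTR, the oxytocin receptor gene, was at 262 in MDA-MB-436, 36 in MCF10A and 30.4 in HT-29, and the matrix gene SPARC, in the same order, at 70.5, 13 and 15.2, at least 2.36-fold higher. HT-29 had 3 of the 10 lower than MCF10A (median -0.18) and 5 lower than MDA-MB-436 (median -1.23). In either case 0 were higher, and 3.5% and 4.68% of all genes were lower. CAV1, CALD1 and MME were lower in both comparisons. CALD1, which encodes the actin-binding protein caldesmon, was at 335 in MCF10A, 175 in MDA-MB-436 and 14.5 in HT-29.

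The next neighbours were chosen after their values were seen. Beside GATA3 on chromosome 10, CELF2, an RNA-binding protein gene, was at 62.7 in MDA-MB-436 and under background in the other lines. Beside SOX9 on chromosome 17, MAP2K6, a kinase gene, was at 84.1 in HT-29 and under background in both mammary lines. Beside SOX10 on chromosome 22, BAIAP2L2, an adaptor protein gene, was at 68.3 in MCF10A, 36.5 in MDA-MB-436 and 146 in HT-29. Of 7 fibroblast markers 3 exceeded background in MDA-MB-436, 2 in MCF10A and 1 in HT-29, with COL1A1 between 50.9 and 57.2. Of 4 melanocyte and Schwann cell markers, 1 was above background in each array, PRX, between 36.1 and 40.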
